A study of Drosophila melanogaster with 46 samples.

Results

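The chorion protein genes encode the main structural proteins of the chorion, the outer part of the Drosophila eggshell. The group described here holds 10 genes, Cp15, Cp16, Cp18, Cp19, Cp36, Cp38, Cp7Fa, Cp7Fb, Cp7Fc and Pxt, each matched by its symbol to the probe sets of the array that name a single gene. A probe set of this kind was found for 8 of the 10 genes, out of 11981 genes with at least 1 such probe set. Cp7Fa and Cp7Fb had none and were not analysed here. Each of the 8 measured genes had 1 probe set.

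RNA was taken from pools of 5 whole virgin females of Drosophila melanogaster. The flies were of the starvation resistant (SR) line, which was selected for starvation resistance and is long-lived, or of the control line (C), with a single line standing for each selection regime. Adults lived on malnutrition food (yeast and sugar at 0.5 times the standard medium), optimal food (2 times) or overfeeding food (5 times), and were frozen as middle-aged flies at 90% survival of their cohort or as old flies at 10% survival. Of the 12 groups of line, food and age, 10 held 4 arrays and 2 held 3, which were the old C flies on malnutrition and on overfeeding, 46 arrays in all. Calendar age was not matched between groups, since each cohort was sampled at its own survival. Line differences are differences between these 2 lines.

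The chorion is secreted by the follicle cells that surround the oocyte, in the last stages of egg formation, after the yolk has been taken up and the vitelline membrane has been laid down. Most chorion genes lie in a pair of clusters, 1 on the X chromosome and 1 on the left arm of chromosome 3, and follicle cells copy the DNA of these clusters many times before they transcribe them. Cp36 and Cp38 of the X cluster are transcribed early in chorion formation, while Cp15, Cp18 and their neighbours Cp16 and Cp19 are transcribed later. Pxt, a haem peroxidase annotated as a chorion peroxidase, is also known for its part in prostaglandin synthesis in the ovary. In the RefSeq annotation Cp7Fa, Cp7Fb, Cp7Fc, Cp36 and Cp38 followed each other on chromosome X with no other protein-coding gene between them, and Cp18, Cp15, Cp19 and Cp16 did so on chromosome arm 3L. Pxt lay apart from both, on 3R.

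The values were log2 expression levels made with the robust multi-array average (RMA), and depth has no counterpart on arrays, whose number limits the precision. Array medians ranged from 5.04 to 5.27 and arrays of 1 group correlated with r of 0.974 to 0.998. No array pair differed by less than 0.12 on average, so none was counted as a repeat of another. Genes of the male reproductive tract, which virgin females should lack, had a mean of 3.55 to 3.84 on every array. In whole flies, a lower number of late follicles and less RNA per follicle cannot be told apart.

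The 7 Cp genes were low in every malnutrition array, apart from Cp15 in part, and ranged from low to very high on the other foods. Cp36 lay between 4.48 and 5.42 in the 15 malnutrition arrays and between 4.67 and 13.24 in the 31 arrays of the other foods, a 432-fold range over all arrays. The range was 485-fold for Cp19, 440-fold for Cp15 and 107.9-fold for Cp7Fc. Pxt ranged only 3.5-fold, from 9.40 to 11.22. A difference between any of the 12 groups was found for all 8 genes (moderated F test, adjusted p from 1.04e-06 for Cp15 to 0.000685 for Cp18), where 49.2% of all probe sets were called.

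**Figure D1:**
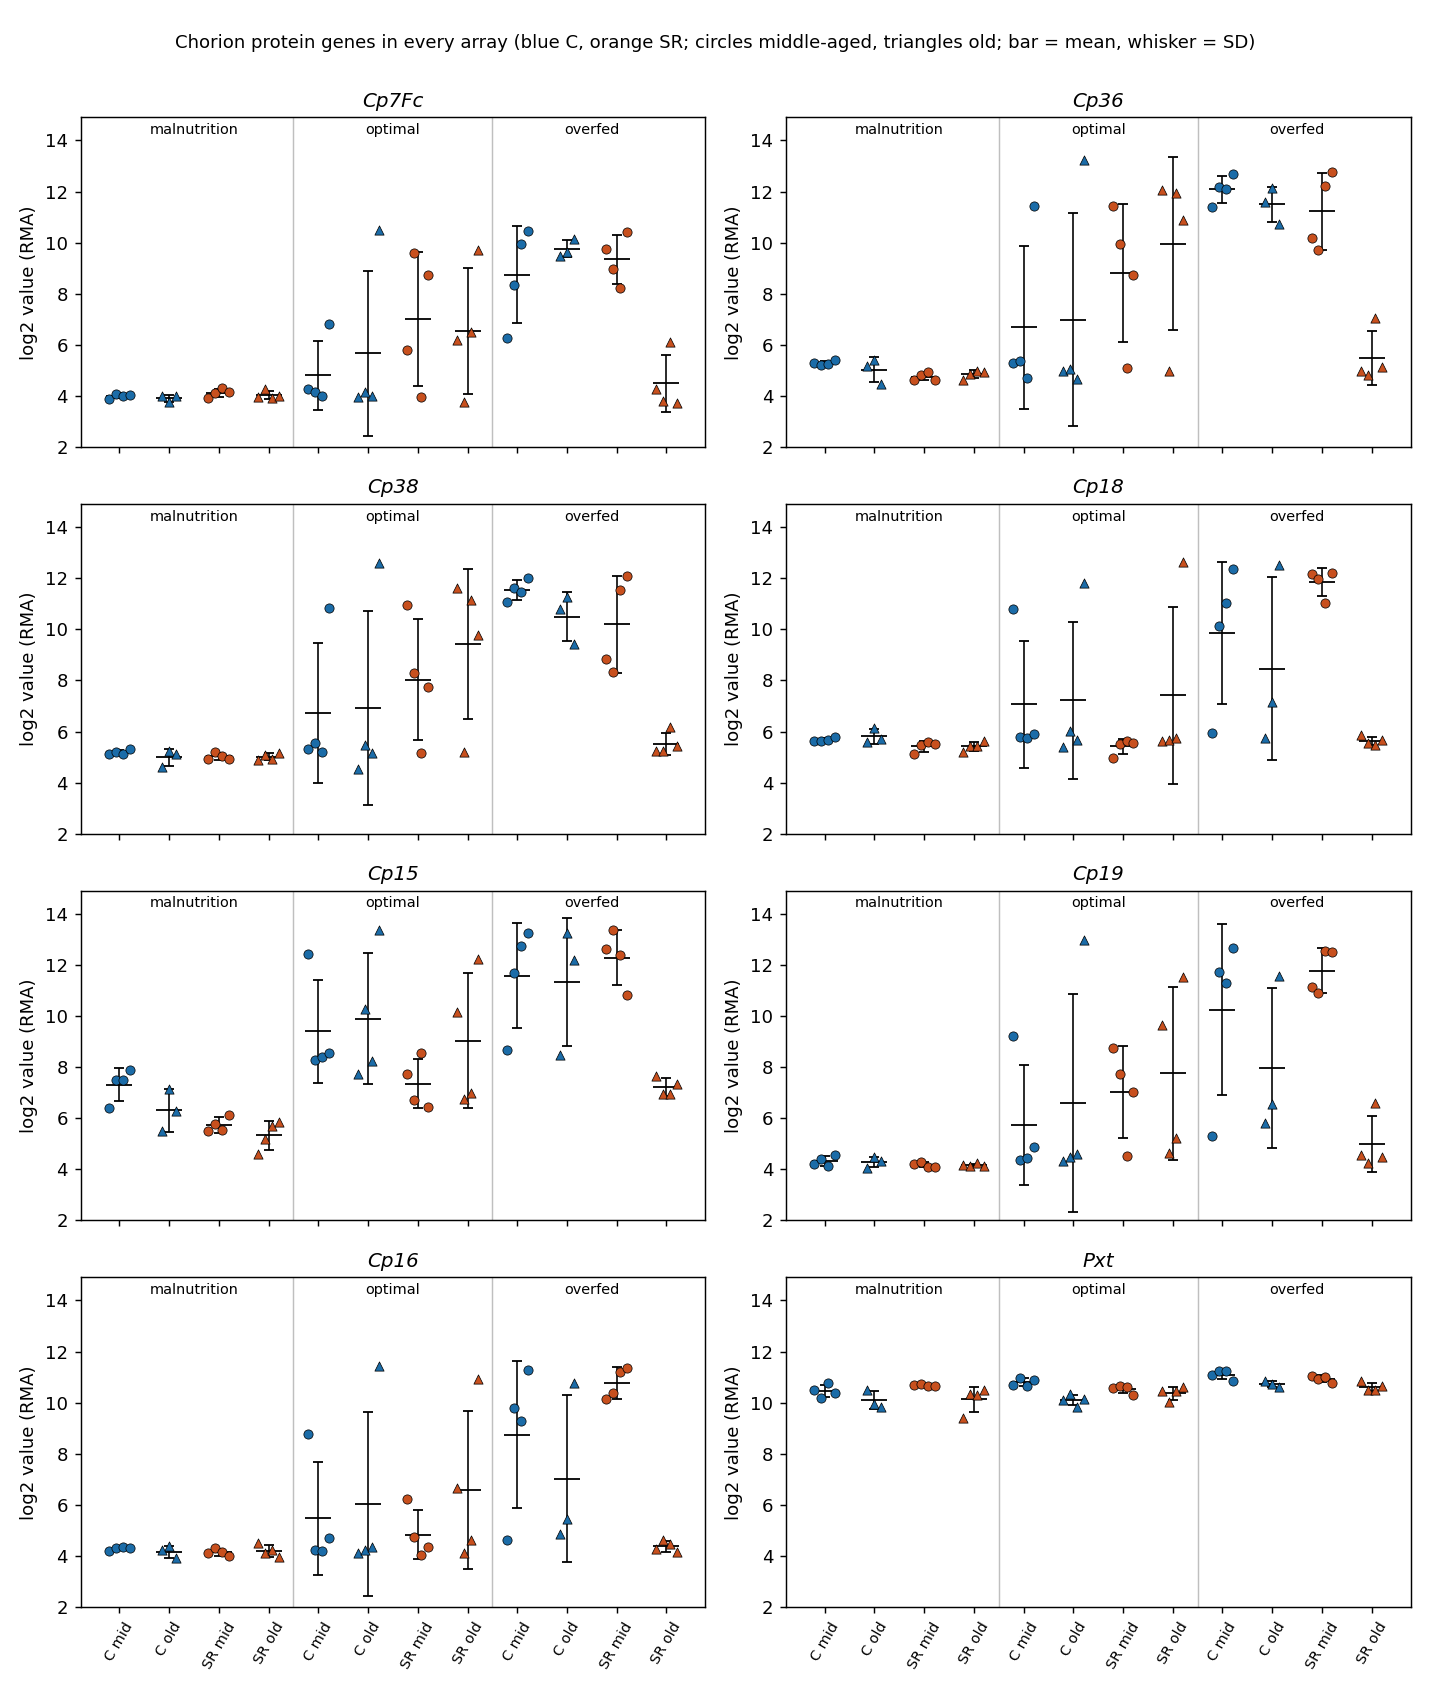
Log2 value of each chorion gene (y axis) in every array, by group (x axis, with the 3 foods separated by grey lines); points are pools of flies, blue for C and orange for SR, circles for middle-aged and triangles for old, with the group mean as a bar and the SD as a whisker. Malnutrition arrays lie in a narrow low band for the Cp genes other than Cp15, and SR flies on overfeeding are high when middle-aged and low when old.

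The spread between pools of the same group was also large for the Cp genes. After the group means were removed, the SD of Cp19 was 2.26, the highest of the 18952 probe sets, and Cp36, Cp18, Cp16 and Cp38 ranked next, with SDs of 2.11, 1.98, 1.98 and 1.90. Cp7Fc (1.65) ranked 10 and Cp15 (1.61) ranked 12, while the median over all probe sets was 0.155. Pxt had a residual SD of 0.24 and 79.21% of the probe sets lay below it. The spread was not shared by all groups, since the SD of Cp36 was 0.08 in middle-aged C flies on malnutrition and 4.17 among old optimal-food C pools.

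Group means of Cp36 were ordered by food more than by line or age. The 4 malnutrition groups were lowest, from 4.76 ± 0.15 (SD, n = 4) in middle-aged SR flies to 5.30 ± 0.08 in middle-aged C flies, followed by old SR flies on overfeeding at 5.49 ± 1.05. The 4 groups on optimal food stood between 6.69 ± 3.19 and 9.97 ± 3.38, and the other overfed groups were highest, with 11.22 ± 1.5 in middle-aged SR, 11.50 ± 0.70 in old C and 12.08 ± 0.53 in middle-aged C flies. Over the whole order, no group differed from its neighbour by more than the larger of their SDs. Cp18 had a different order on optimal food, where middle-aged SR flies were at 5.42 ± 0.30, as low as the malnutrition groups, and its highest mean was that of middle-aged SR flies on overfeeding, 11.84 ± 0.54.

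To describe single pools, a gene was called raised in an array when it stood more than 2 on the log2 scale, 4-fold, above its median over the malnutrition arrays. This limit was chosen after the values were seen and carries no test. In the malnutrition arrays the 7 Cp genes were never raised, except Cp15 in replicate 4 of the middle-aged C flies. In the 31 arrays of the other foods Cp15 was raised in 21, Cp36 in 20, Cp38 in 19, Cp7Fc in 19, Cp19 in 17, Cp16 in 13 and Cp18 in 11. All 7 were raised together in 10 arrays, none in 5, and Cp15 alone in 5. The arrays with Cp15 alone were, on optimal food, replicates 2 and 3 of both C groups and replicate 3 of the middle-aged SR flies. The limit for Cp15 was the same for both lines, although its malnutrition means were higher in C flies, with no call. In middle-aged malnutrition pools the mean of Cp15 was 7.32 in C and 5.73 in SR flies. The highest C malnutrition pool stood at 7.90. The C arrays with Cp15 alone stood at 8.29 and 8.38 (middle-aged) and at 10.29 and 8.22 (old). Counts of raised Cp15 in C flies thus depend on the shared limit.

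Of the X cluster, Cp36, Cp38 and Cp7Fc were mostly raised in the same pools. Cp38 was raised in 19 of the 20 arrays in which Cp36 was raised and in no other, and Cp7Fc likewise shared 19 arrays with Cp36. In the 3L cluster the sets of raised pools were unequal in size. Cp18 was raised in 11 arrays, and Cp15, Cp19 and Cp16 were raised in all 11 of them, but Cp15 was raised in 10 further arrays without Cp18. That count for Cp15 depends on the shared limit, which lay nearer to the malnutrition values of C than of SR flies. Cp15 and Cp19 were both raised in 13 arrays, Cp15 alone of the pair in 8 and Cp19 alone in 4. Between the clusters, Cp36 and Cp18 were both raised in 10 arrays, Cp36 without Cp18 in 10, Cp18 without Cp36 in 1 and neither in 10. Cp36 was raised in 16 of the 17 arrays with Cp19 raised and in 10 of the 11 with Cp18 raised.

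The single pool with Cp18 but not Cp36 raised was replicate 1 of the middle-aged C flies on optimal food. In it Cp18 stood at 10.80, Cp15 at 12.43, Cp19 at 9.23 and Cp16 at 8.78, while Cp36 was at 5.28, Cp38 at 5.32 and Cp7Fc at 4.28. In replicate 4 of the same group Cp36 was at 11.45, Cp38 at 10.83 and Cp7Fc at 6.83. Cp18 was at 5.91, Cp19 at 4.88 and Cp16 at 4.71 there. Cp15, at 8.54, passed the limit in replicate 4 too, but lay near replicates 2 and 3 of the group (8.29 and 8.38). Replicates 1 and 4 thus differed in which cluster was high.

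**Figure D2:**
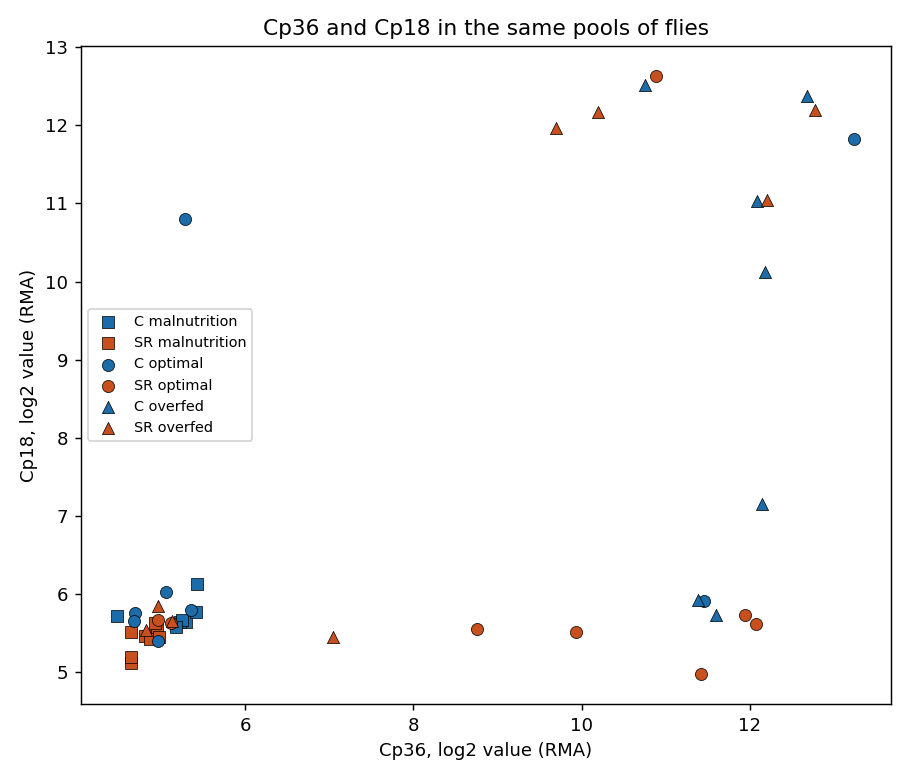
Log2 value of Cp36 (x axis) against that of Cp18 (y axis), 1 point per array, with squares for malnutrition, circles for optimal food and triangles for overfeeding, and blue for C and orange for SR. Points fall near the low corner, along the lower edge with Cp36 alone high, and at the upper right with both high, and 1 array on optimal food has Cp18 at 10.80 with Cp36 at 5.28.

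The largest change with age was seen in SR flies on overfeeding, where old flies had much lower levels of all 7 Cp genes than middle-aged flies. Cp36 stood at 10.20, 9.70, 12.20 and 12.78 in the middle-aged pools and at 4.96, 4.82, 7.05 and 5.12 in the old pools. Cp18 was at 12.17, 11.96, 11.04 and 12.19 against 5.86, 5.55, 5.46 and 5.66. Cp19 was at 11.14, 10.89, 12.53 and 12.52 against 4.58, 4.26, 6.61 and 4.50. The groups did not overlap for any of the 7 genes, and 3 of the 4 old pools had no Cp gene raised, replicate 3 being the exception with Cp19, Cp36 and Cp7Fc.

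In this comparison 7 of the 8 genes fell with age, while 0.417% of all probe sets did so (limma, adjusted p under 0.05), and 3.35% of probe sets were lower in old flies without overlap. Of the 3L cluster, Cp19 changed by -6.79 ± 1.52 (log2, SE, adjusted p = 0.00854), a 110-fold lower level, Cp16 by -6.39 ± 1.32 (adjusted p = 0.00393), Cp18 by -6.21 ± 1.33 (adjusted p = 0.00554) and Cp15 by -5.07 ± 1.08 (adjusted p = 0.00529). Of the X cluster, Cp36 changed by -5.73 ± 1.41 (adjusted p = 0.0206), Cp7Fc by -4.85 ± 1.11 (adjusted p = 0.0103) and Cp38 by -4.69 ± 1.27 (adjusted p = 0.0417). Pxt differed by -0.32 ± 0.16 (adjusted p = 0.477). When arrays were left out in turn, 5 to 7 genes passed, and the calls that were lost were those of Cp38, in 7 of 8 fits with an adjusted p of up to 0.201, and of Cp36, in 4 of 8 with up to 0.103. With only these 2 groups in the fit, all 7 passed.

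**Figure D3:**
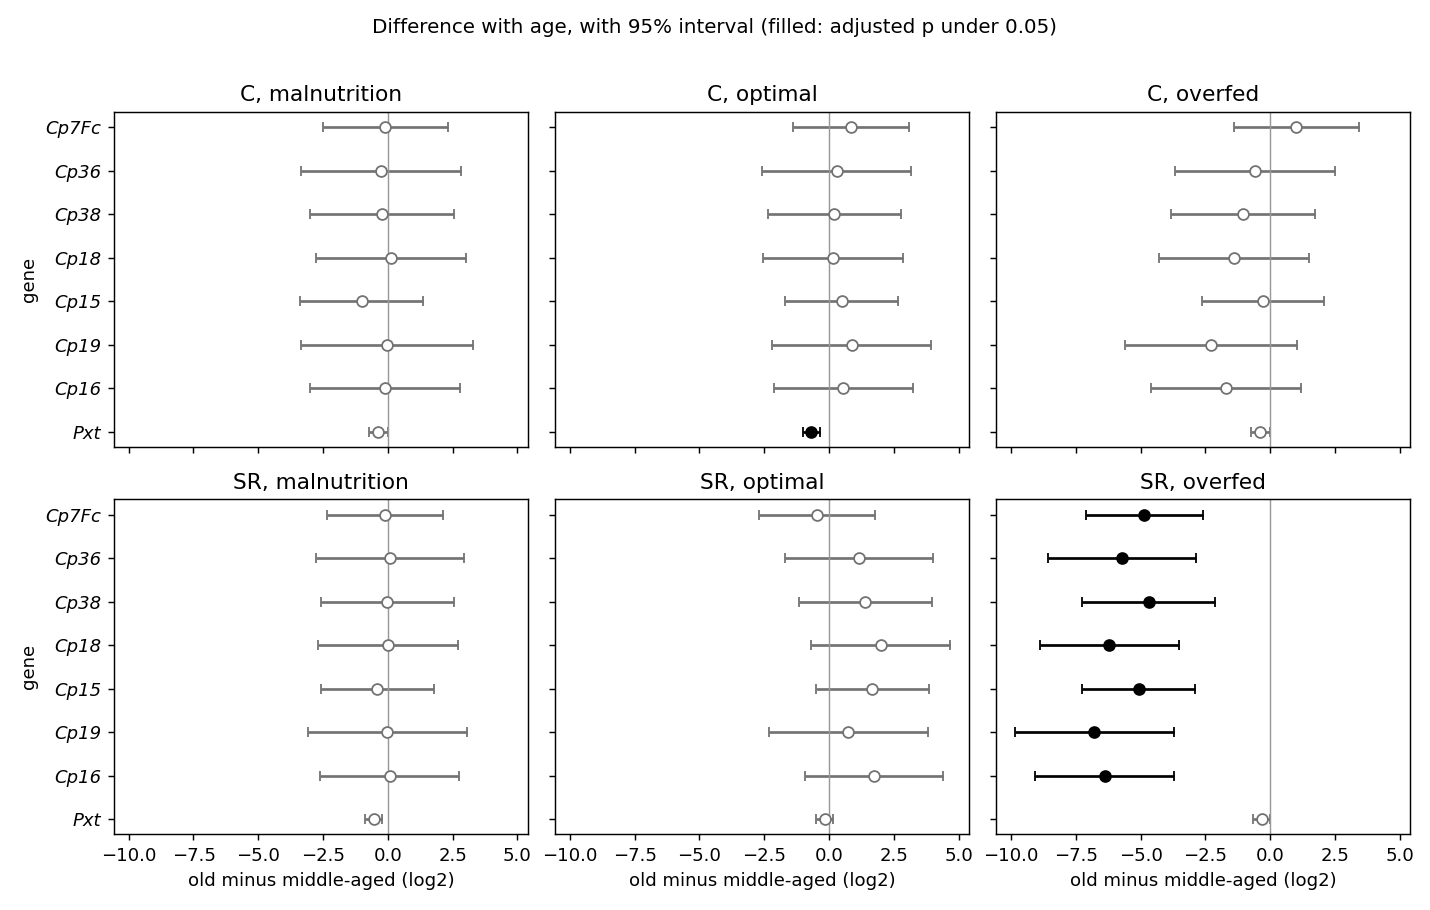
Difference between old and middle-aged flies (x axis, log2, old minus middle-aged) of each gene (y axis) in each line and food, with the 95% interval of the fit; filled points have an adjusted p under 0.05. Filled points are those of the 7 Cp genes in SR flies on overfeeding and that of Pxt in C flies on optimal food.

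The other eggshell genes measured did not all follow. Femcoat, an eggshell gene, fell by 4.20 ± 0.91 with age in the overfed SR flies (adjusted p = 0.00647), from 7.02 to 8.46 in the middle-aged pools to 3.43 to 3.81 in the old ones. It was the only 1 of 14 other eggshell genes that passed, while 9 had an unadjusted p under 0.05, 1 had a positive difference and their median difference was -1.37. Vm26Aa, a vitelline membrane protein gene, stood at 5.98, 10.82, 11.70 and 7.25 in the old pools, against 10.71 to 12.33 in the middle-aged ones. Vm34Ca, of the same family, stood at 6.93, 11.16, 12.79 and 7.96 in the old pools. The old replicates 2 and 3 thus had Vm26Aa within the range of the middle-aged pools, with Cp18 at 5.55 and 5.46. They were also the higher old pools for Vm34Ca.

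Few genes of the other ovarian lists and of the lists of other tissues were called in that comparison. None of 26 germline genes (median -0.17), of 27 genes of the chorion gene amplification machinery (median -0.17), of 4 yolk genes (median -0.46) or of 18 neuronal genes (median 0.17) passed, with 2, 1, 1 and 1 of them at an unadjusted p under 0.05. Of 9 muscle genes, Mlc2 (1.01) rose and fln fell (-1.48), and of 9 gut genes Mal-A1 (2.19) and Mal-A8 (2.57) rose. Of all probe sets 1.38% rose and 0.417% fell. The mean of the gut list was 10.29 ± 0.685 (SD) in middle-aged and 10.89 ± 0.46 in old pools. No fat body gene of 7 (median 0.15) and no gene of 6 for mature follicles and ovulation (median 0.16) passed, with 2 of each at an unadjusted p under 0.05. The means of both lists were nonetheless higher in the old pools without overlap. They were 10.56 to 11.05 against 9.97 to 10.39 for the fat body list. For the list of mature follicles and ovulation they were 5.83 to 6.09 against 5.66 to 5.79. Octbeta2R, Mmp2, Tbh and Tdc2 of the latter list had low means over all arrays, 3.95 to 4.80. Its mean is no measure of the number of mature follicles. The median over all probe sets was -0.02. Whether tissue proportions had a part in the change of the Cp genes was not tested.

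In the other 5 age comparisons no Cp gene passed. Pxt fell by 0.69 ± 0.16 in C flies on optimal food (adjusted p = 0.00287), where 16.3% of all probe sets fell. It stood at 10.69, 10.97, 10.66 and 10.88 in middle-aged and at 10.10, 10.34, 9.83 and 10.15 in old pools, without overlap, as did 13% of probe sets that were lower. In this comparison 24 of the 27 amplification genes (median -0.58) and 16 of the 26 germline genes (median -0.45) fell as well. None of the 8 genes was called in C flies on malnutrition (0.823% of all probe sets called) or overfeeding (1.24%), nor in SR flies on malnutrition (0.327%) or optimal food (0.955%). At an unadjusted p under 0.05 there was 1 gene, Pxt, in each of C malnutrition, C overfeeding and SR malnutrition, and 0 in SR flies on optimal food.

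In C flies on optimal food the sign of the age difference of the Cp genes depended on 1 array, replicate 4 of the old flies. It held Cp36 at 13.24, Cp38 at 12.60, Cp19 at 12.99, Cp15 at 13.35, Cp18 at 11.82, Cp16 at 11.42 and Cp7Fc at 10.50. The other 3 old pools had Cp36 at 4.97, 5.06 and 4.67 and Cp18 at 5.40, 6.03 and 5.65. The mean of 14 other eggshell genes was also highest in this array, 9.71, against 5.48 in the lowest array of the group.

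With all arrays the differences of the 7 Cp genes lay between 0.16 ± 1.33 for Cp18 and 0.87 ± 1.52 for Cp19. Without that array they lay between -0.66 ± 1.07 for Cp15 and -1.79 ± 1.25 for Cp36, with adjusted p from 0.326 to 0.74. Neither set passed. The sign for Cp36, Cp38 and Cp18 also turned when single middle-aged arrays were left out, in a group where 1 pool of 4 was high for each gene. The difference of Pxt was -0.69 with and -0.71 without the array (adjusted p = 0.00828).

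**Figure D4:**
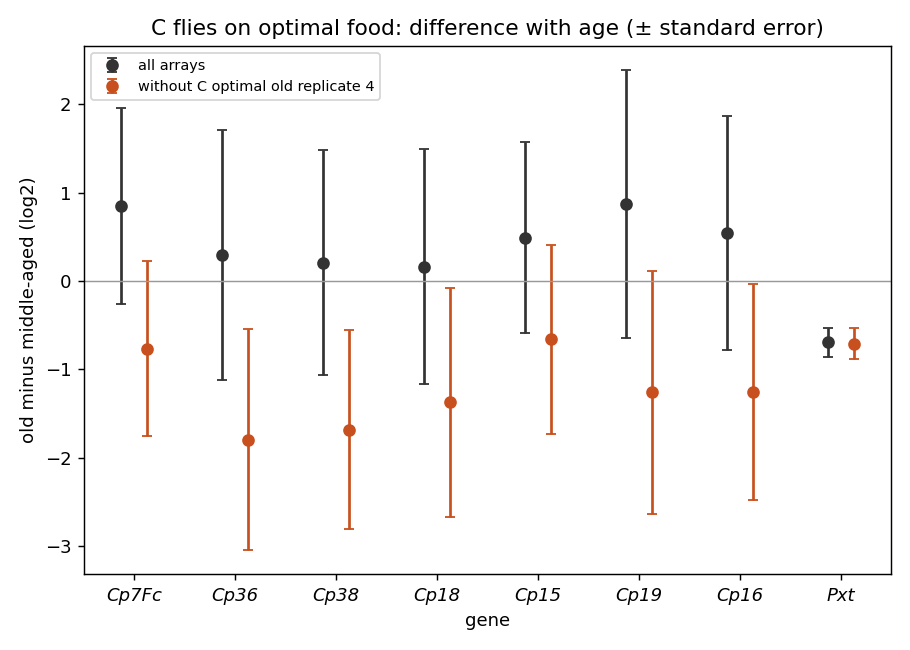
Age difference (y axis, log2, old minus middle-aged) of each gene (x axis) in C flies on optimal food, with the standard error as bar, from all arrays (dark) and without replicate 4 of the old flies (orange). The 7 Cp genes change sign, from 0.16 to 0.87 with all arrays to -0.66 to -1.79 without it, and Pxt stays at -0.69 and -0.71.

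Line differences of the Cp genes were seen in old flies on overfeeding. Old C pools held Cp36 at 11.60, 12.14 and 10.75 and Cp7Fc at 9.49, 9.65 and 10.14, while the 4 old SR pools held Cp36 at 4.82 to 7.05 and Cp7Fc at 3.74 to 6.11. Lower levels in SR passed the test for 4 of 8 genes, against 1.19% of all probe sets. These were Cp36 (difference -6.01 ± 1.53, adjusted p = 0.0196), Cp7Fc (-5.27 ± 1.20, adjusted p = 0.00647), Cp38 (-4.99 ± 1.37, adjusted p = 0.0372) and Cp15 (-4.10 ± 1.17, adjusted p = 0.047).

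Cp16, Cp18 and Cp19 differed by -2.65, -2.84 and -2.99 and did not pass (adjusted p from 0.47 to 0.538). In the old C pools these genes were uneven, with Cp18 at 5.73, 7.15 and 12.51. When arrays were left out in turn, 1 or 2 genes passed, Cp7Fc in all fits with a difference of -5.02 to -5.81 and an adjusted p of up to 0.042. Of the other eggshell genes, yellow-g2, a follicle cell gene of the yellow family, was lower in old SR flies (-3.75 ± 1.02, adjusted p = 0.0345). The other 13 of 14 did not pass, while 9 of the 14 had an unadjusted p under 0.05 and the median difference was -1.98. The germline and amplification lists had no gene called, with 4 and 0 genes at an unadjusted p under 0.05.

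No member was called between the lines in the other 5 comparisons, in which 3.41% (malnutrition, middle-aged), 3.59% (malnutrition, old), 16.7% (optimal, middle-aged), 4.35% (optimal, old) and 4.47% (overfed, middle-aged) of all probe sets were called. At an unadjusted p under 0.05 there was 1 member, in old flies on optimal food. There the comparison depended on single arrays. Of 8 fits that each left out an array, Cp36 was called in 2 and Cp38 in 1. Both were called in the fit without the array described above. Without it Cp36 (5.07 ± 1.25, adjusted p = 0.0146) and Cp38 (4.39 ± 1.12, adjusted p = 0.0193) were higher in SR than in C flies, and with it they differed by 2.98 and 2.50 (adjusted p = 0.261 and 0.3). Old SR pools on optimal food held Cp36 at 12.08, 4.96, 11.94 and 10.88, so that 3 of 4 were high, against 1 of 4 in C. In middle-aged flies on malnutrition, Cp15, Cp18 and Cp36 were lower in SR without overlap, as were 4.79% of all probe sets. Cp36 stood there at 4.64 to 4.95 in SR and at 5.23 to 5.41 in C flies. The fit shares 1 spread with the more variable groups on the other foods. With only these groups in the fit, some members were called.

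Whether the change with age differed between the lines was tested as an interaction. On overfeeding the estimates were negative for all 7 Cp genes, from -3.65 ± 1.87 for Cp38 to -5.86 ± 1.63 for Cp7Fc, but none passed (0.095% of all probe sets called, adjusted p of 0.262 for Cp7Fc), with 5 at an unadjusted p under 0.05. A difference between the lines in their age response of the Cp genes was therefore not shown. On malnutrition (0.0264% called) and optimal food (5.26%) no member passed either, with 0 and 1 at an unadjusted p under 0.05, and Pxt had the lowest adjusted p on optimal food, 0.132, with an estimate of 0.53 ± 0.23.

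The foods were compared next. Overfed flies had higher levels of most or all Cp genes than malnourished flies in each line and age but old SR flies, a comparison added after the values were seen. In middle-aged C flies all 8 genes rose, with 7.99% of all probe sets higher. Cp36 was higher by 6.78 ± 1.41 (adjusted p = 0.000384), Cp38 by 6.34 ± 1.27 (adjusted p = 0.000238) and Cp19 by 5.91 ± 1.52 (adjusted p = 0.00374). Pxt was higher by 0.64 ± 0.16 (adjusted p = 0.0033). In middle-aged SR flies 7 genes rose, against 7.06% of probe sets, led by Cp19 with 7.58 ± 1.52 (adjusted p = 0.000333). In old C flies 5 rose, Pxt among them, against 6.24%, led by Cp36 with 6.47 ± 1.63 (adjusted p = 0.00439). Cp16, Cp18 and Cp19 did not pass in old C flies (adjusted p from 0.186 to 0.312).

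In old SR flies Pxt alone was higher on overfeeding than on malnutrition, by 0.49 ± 0.16 (adjusted p = 0.0265, 9.59% of probe sets higher). The 7 Cp genes differed there by 0.17 to 1.88 and none passed. The yolk genes Yp1, Yp2, Yp3 and the yolk receptor gene yl were higher on overfeeding in all 4 comparisons, old SR flies included, where their median difference was 3.39. Of the 14 other eggshell genes 7 rose in middle-aged C, 9 in old C, 10 in middle-aged SR and 2 in old SR flies.

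Malnutrition against optimal food gave fewer calls. In old SR flies Cp36 (-5.12 ± 1.41, adjusted p = 0.0079), Cp38 (-4.43 ± 1.27, adjusted p = 0.0109) and Cp15 (-3.70 ± 1.08, adjusted p = 0.0127) were lower on malnutrition, 3 of 8 genes against 8% of all probe sets. Cp36 was lower in middle-aged SR flies (-4.04 ± 1.41, adjusted p = 0.0498, 6.4% of probe sets lower) and Cp15 in old C flies (-3.59 ± 1.17, adjusted p = 0.027, 7.97% lower). The call of Cp36 in middle-aged SR flies was lost in 7 of 8 fits that left out an array (adjusted p of up to 0.194) and when arrays were centred on their median. That of Cp15 in old C flies was lost in 4 of 7 such fits, among them the fit without optimal food replicate 4 of the old flies (-2.44, adjusted p = 0.169). In middle-aged C flies no member was called (14.1% of probe sets called), with 1 at an unadjusted p under 0.05. With only the 2 groups in the fit, none of the 8 genes passed in old SR or old C flies, and 4 did in middle-aged SR flies. The fit over all arrays shares 1 spread between all groups, although pools varied far less on malnutrition than on optimal food.

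Lists of other tissues also moved with malnutrition. In old SR flies 15 of 18 neuronal genes were higher on malnutrition than on optimal food, with a median of 1.16. Lower were 9 of 9 gut genes, with a median of -2.68. Of all probe sets 8.24% were called higher and 8% lower there. Over single arrays the mean of the neuronal list was 6.71 to 7.48 on malnutrition. It was 5.34 to 6.44 on the other foods. Germline genes were nearly level, 9.18 to 9.91 over all arrays. The part of these shifts in the differences of the Cp genes was not tested.

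Overfeeding against optimal food gave calls in middle-aged SR flies only, and for 3 genes of the 3L cluster. Cp18 stood at 4.98, 5.51, 5.63 and 5.55 on optimal food and at 11.04 to 12.19 on overfeeding, and rose by 6.42 ± 1.33 (adjusted p = 0.0237). Cp16 (5.93 ± 1.32, adjusted p = 0.028) and Cp15 (4.93 ± 1.08, adjusted p = 0.026) rose too, 3 of 8 genes against 0.195% of all probe sets. Cp19, of the same cluster, differed by 4.76 ± 1.52 and did not pass (adjusted p = 0.0983). Cp36, already at 8.75 to 11.42 in 3 of the 4 optimal pools, differed by 2.41 ± 1.41 (adjusted p = 0.369). When arrays were left out in turn 0 to 3 genes passed, with the lower counts of 0 or 1 when any of 5 arrays was left out.

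In middle-aged C flies no gene was called (0.0106% of probe sets), although Cp36 differed by 5.39 ± 1.41 and Cp38 by 4.80 ± 1.27, with the same adjusted p of 0.333, and 6 genes had an unadjusted p under 0.05. In old C flies no gene was called with all arrays (0.871% of probe sets), and 4 had an unadjusted p under 0.05. Without replicate 4 on optimal food Cp7Fc (5.71 ± 1.06, adjusted p = 0.00358), Cp36 (6.60 ± 1.34, adjusted p = 0.00861) and Cp38 (5.45 ± 1.20, adjusted p = 0.0152) were higher on overfeeding. In old SR flies the differences of the Cp genes were negative, -1.78 to -4.48, and none passed (0.248% of probe sets), with 2 genes at an unadjusted p under 0.05.

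The eggshell genes differed in how far their raised pools matched those of Cp36 and Cp18. Vm26Aa was raised in 24 of the 31 arrays on optimal food and overfeeding, among them 18 of the 20 with Cp36 raised and 9 of the 11 with Cp18. The chorion gene dec-1, which encodes a follicle cell product of the early chorion, was raised in 22. yellow-g was raised in 16 arrays and Cp36 was raised in all 16, whereas Cp18 was raised in 9 of them. Femcoat was raised in 13, which included all 11 arrays with Cp18 raised. Pxd, a peroxidase gene, was raised in none and did not exceed 4.43, and none of these genes was raised on malnutrition.

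**Figure D5:**
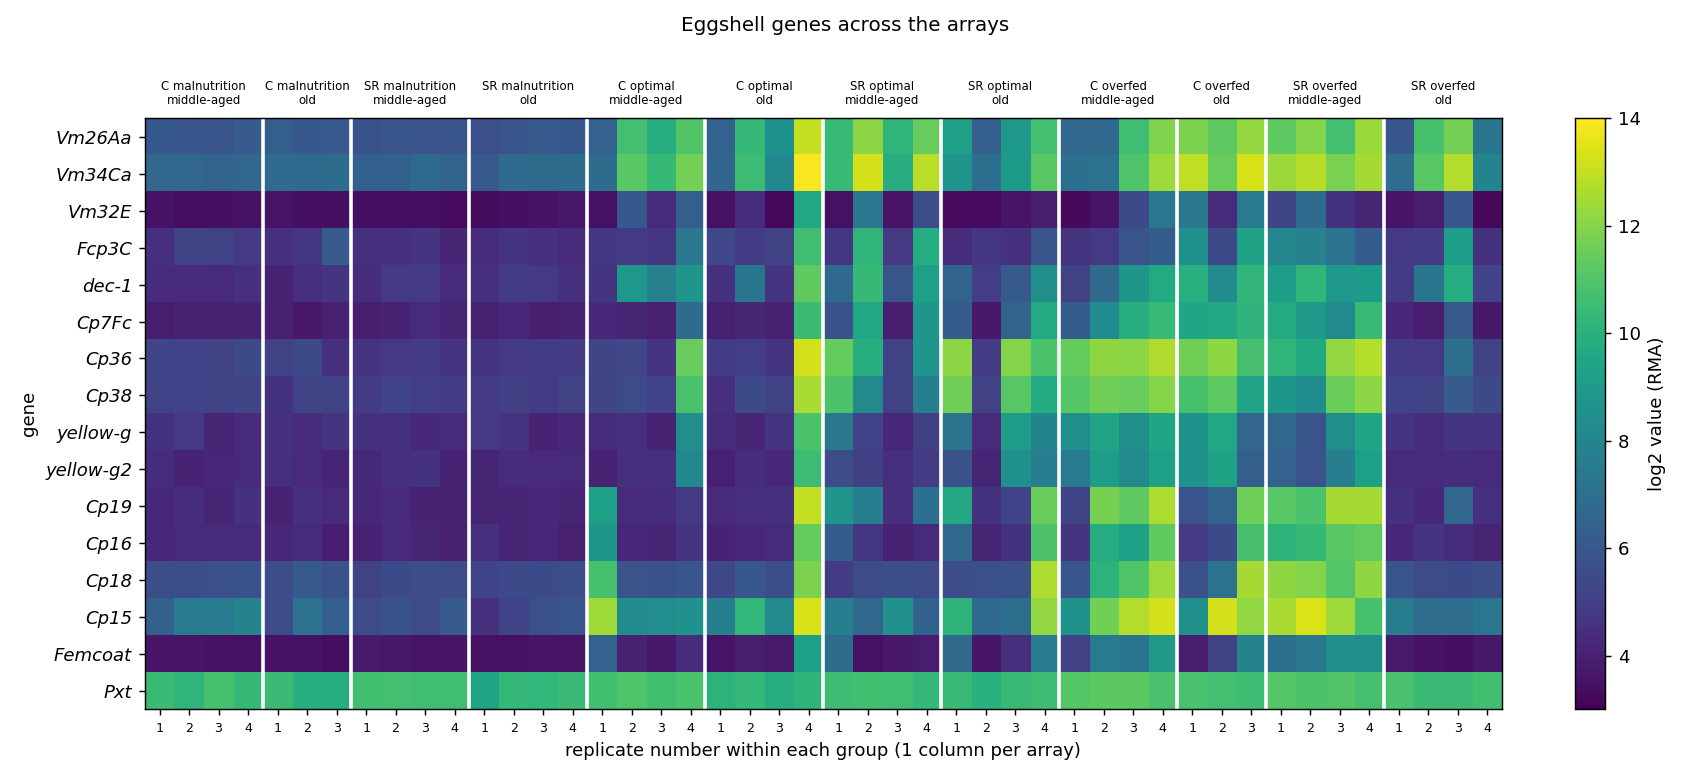
Log2 values (colour, 3 to 14) of eggshell genes (rows, from vitelline membrane genes at the top over the X cluster to the 3L cluster, Femcoat and Pxt) in every array (columns, by group). Colours are to be compared along a row only, since probes differ in brightness; replicate 4 of the old C flies on optimal food is high in the eggshell rows other than Pxt, and old SR pools 2 and 3 on overfeeding are high for Vm26Aa and Vm34Ca but not for Cp18.

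The genes whose values followed the mean of the 7 Cp genes most closely over the 46 arrays, among 7861 genes with a mean of at least 5, were CG13083 (r = 0.954), CG13084 (0.936), Muc12Ea (0.917), CG11381 (0.9) and Mur2B (0.888). CG4009 (0.887), CG14834 (0.874), Cad74A (0.866), yellow-g (0.848) and yellow-g2 (0.846) came next. These correlations describe arrays that share groups and are given with no test. Part of the likeness was within groups, where r over deviations from group means was 0.906 for CG13083 and 0.902 for CG13084 but 0.661 for yellow-g2. CG13083 and CG13084 are neighbours on chromosome arm 2L and yellow-g and yellow-g2 on 3L. Their values ran from 4.59 to 10.42 for CG13083 and from 3.49 to 10.75 for CG11381.

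Pxt was called together with Cp genes only on overfeeding against malnutrition, in middle-aged and old C flies. It was never raised, and its group means ran from 10.10 ± 0.36 in old C flies on malnutrition to 11.10 ± 0.17 in middle-aged C flies on overfeeding, and no neighbours in this order differed by more than the larger of their SDs. In each line and food the mean was lower in old than in middle-aged flies, by 0.17 to 0.69, and only the difference in C flies on optimal food passed. In that group the Cp genes gave no call in either direction, and in overfed SR flies, where the Cp genes fell, Pxt did not pass.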

How the data were processed

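RNA of each pool was amplified, labelled with biotin and hybridised to 1 Affymetrix array of a single colour. The authors deposited log2 values after RMA (background correction, quantile equalisation and probe summary), and the submitters' processing notes name R 2.7.0. The methods state that arrays of poor quality were excluded. No array was normalized again, and no detection call was used, so low values may be background and folds from them are understated. Of 18952 probe sets, 13646 name 1 gene, 402 several and 1 none, and 4903 are not listed; 13543 matched a RefSeq gene. Where a gene had several probe sets the brightest stood for it. Groups came from the sample labels, and replicates are separate pools that the labels call biological.

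A linear model with a mean for each group was applied to the 46 arrays (limma 3.58.1, functions lmFit and eBayes, under R 4.3.3), in place of the ANOVA of the study's methods. Contrasts of 2 groups, interactions and the F test over 12 groups, all two-sided, were adjusted by Benjamini-Hochberg over all probe sets at 0.05. The fit was tested on simulated data. Alternatives were centring arrays on their median or on the neuronal list, quantile normalization, a mean of at least 5, array weights, a replicate block, leaving out each array and, added after seeing the data, a fit of only the groups compared, with or without replicate 4 of the old C flies on optimal food. Same-numbered samples deviated together, in each of their pairs, for 2 contrasts among 24, namely optimal food age in C (r of 0.344 to 0.401) and overfed old line (0.118 to 0.192). This pairing comes from the data and not the labels. With the block 1 and 4 genes were called there, as without it. All measured members are named. The lists (eggshell, amplification, follicle, germline, yolk, neuron, muscle, gut, fat body, male tract) are described by counts. Members and lists were chosen with earlier results of these data known. Python 3.11.15, numpy 2.4.6, pandas 2.3.3 and matplotlib 3.10.9 were used for the rest.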

Additional observations from a re-analysis of the deposited data

Results flagged for a closer look

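Single pools that stood far from the rest of their group of 4 (a gap to the nearest pool, as a share of the group's range, above Dixon's 95% critical value) were found in 18 of 80 sets of a gene and a group, where chance gives about 1 in 20, which is 4. The genes rise together in a pool, so the 18 are not independent. In 17 of them the pool was the highest.

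Replicate 4 of the old C flies on optimal food was the highest for Cp16 (11.42), Cp18 (11.82), Cp19 (12.99), Cp36 (13.24), Cp38 (12.60) and Cp7Fc (10.50), with the nearest pool at 4.36, 6.03, 4.58, 5.06, 5.48 and 4.17. In the middle-aged C flies on optimal food, replicate 1 was the highest for Cp15 (12.43), Cp16 (8.78), Cp18 (10.80) and Cp19 (9.23), and replicate 4 for Cp36 (11.45), Cp38 (10.83) and Cp7Fc (6.83).

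In SR flies, replicate 4 of the old pools on optimal food was the highest for Cp18 (12.63), and replicate 2 the lowest for Cp36 (4.96, with the nearest at 10.88). Replicate 3 of the old SR pools on overfeeding was the highest for Cp19 (6.61) and Cp36 (7.05). The remaining pool, replicate 4 of the middle-aged C flies on malnutrition, had Cp18 at 5.77 against 5.66, a gap of no size. The cause of these differences between pools was not tested.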

How the results depend on the processing

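No called difference changed direction under any alternative. The uncalled age differences of Cp genes in C flies on optimal food did: centring on the neuronal list gave -0.11 for Cp18 and -0.060 for Cp38, and leaving out arrays gave -0.66 to 1.49 for Cp15, -1.26 to 1.64 for Cp16, -1.37 to 1.40 for Cp18, -1.26 to 2.04 for Cp19, -1.79 to 1.88 for Cp36, -1.68 to 1.57 for Cp38 and -0.77 to 1.52 for Cp7Fc; the values without replicate 4 of the old flies were the same when only these groups were fitted. Counts of the 8 genes called moved as follows. Leaving out arrays gave 0 to 3 for malnutrition in middle-aged SR, 1 to 5 in old SR and 0 to 1 in old C flies; 0 to 3 for overfeeding in middle-aged SR and in old C and 0 to 1 in old SR flies; 0 to 1 for overfed against malnutrition in old SR flies; and for line 0 to 1 (optimal, middle-aged), 0 to 2 (optimal, old) and 1 to 2 (overfed, old). Centring on the neuronal list gave for malnutrition 3 (C middle-aged), 6 (C old), 5 (SR middle-aged) and 8 (SR old), for overfeeding 6 (SR middle-aged), and for overfed against malnutrition 8 (C old) and 2 (SR old). The mean of that list was itself highest on malnutrition and lowest on overfeeding in each line and age. Centring on it therefore lowers other genes on the poorer food, and the added calls give no further evidence. Centring on the median gave 0 for malnutrition in middle-aged SR flies. Array weights gave 1 for age in C overfed and SR malnutrition, for malnutrition in middle-aged C 1, middle-aged SR 2 and old SR 5, for overfeeding 1 (C old) and 2 (SR old), and for line by age 1 (optimal) and 2 (overfed). The replicate block gave 2 for malnutrition in middle-aged SR and 1 for overfeeding in old C flies and moved no other count. With only the groups compared the counts were 2 for line on malnutrition in middle-aged flies, and for malnutrition 0 (C old), 4 (SR middle-aged) and 0 (SR old); without replicate 4 of the old C flies on optimal food as well, 0 for malnutrition and 3 for overfeeding in old C flies. The choice between probe sets could not be varied for the 8 measured genes, as each of them had 1. Apart from the shift built in by the neuronal list, the cause of these moves was not tested. Fewer arrays and fewer groups in the fit reduce its degrees of freedom.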

Other observations

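Regulators of follicle cells moved less than the chorion genes did. The transcription factor gene br, which patterns the follicle cells that form the dorsal eggshell appendages, was lower on malnutrition than on optimal food in middle-aged C (-0.62 ± 0.19, adjusted p = 0.0224), middle-aged SR (-1.41 ± 0.19, adjusted p = 1.84e-06) and old SR flies (-0.93 ± 0.19, adjusted p = 0.000311; limma). Egfr, the receptor gene of the same patterning step, was lower on malnutrition in old C (-1.27 ± 0.19, adjusted p = 4.85e-06) and old SR flies (-1.12 ± 0.18, adjusted p = 8.47e-06). Cf2, which encodes a zinc finger factor of follicle cells, was higher on malnutrition in middle-aged C (0.80 ± 0.22, adjusted p = 0.00876) and old SR flies (0.62 ± 0.22, adjusted p = 0.0438). All 3 genes are also expressed outside the ovary. The values of br are those of the brightest of its 5 probe sets, while Egfr and Cf2 had 1 each. Over the 13 regulators measured, 3 rose and 1 fell in middle-aged C, 0 and 1 in old C, 1 and 2 in middle-aged SR and 2 and 2 in old SR flies, where 14.1%, 17.5%, 13.8% and 16.2% of all probe sets were called in either direction. None passed for age in SR flies on overfeeding.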
